A study of Mus musculus with 9 samples.

Results

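The transcription factors that direct myeloid cells towards the granulocyte or the monocyte fate were followed here in myeloid-derived suppressor cells (MDSCs), the immature myeloid cells that accumulate in tumour-bearing hosts. They are 9 genes chosen by name, Spi1, Cebpa, Cebpb, Cebpd, Cebpe, Irf8, Klf4, Gfi1 and Nr4a1, of 23284 genes measured. Each was found in all 9 samples, 8 under these symbols and Spi1 under its older symbol Sfpi1.

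RNA-sequencing was performed on MDSCs from the spleens of mice bearing spindle cell tumours (SCTs). The samples form 3 groups of 3, namely PMN-MDSCs, the neutrophil-like subset, from WT C57BL/6J mice, Mo-MDSCs, the monocyte-like subset, from WT C57BL/6J mice, and Mo-MDSCs of p16/p21-DKO mice labelled C57BL/6, which lack the cell cycle inhibitors p16 and p21. PMN-MDSCs of the p16/p21-DKO genotype were not analysed here. Every mouse, controls included, carried SCT cells, a line derived from the carcinogen-treated skin of a p16 knockout mouse. PMN-MDSCs were taken as Ly6G+ cells and Mo-MDSCs as Ly6G-Gr-1+ cells with a magnetic isolation kit, 3 weeks after the tumour cells were injected. The labels give the age of the mice as 3 weeks, whereas the methods of the study describe adult mice. WT mice were purchased and p16/p21-DKO mice were bred, so that genotype and colony cannot be told apart. Neither source says whether a sample is 1 mouse or a pool, so p-values measure the spread between these samples, which may in part be technical.

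Expression is given as FPKM, by its name the fragments of a gene divided by its transcript length and by the mapped fragments of the library. Whether values were also scaled between libraries is not given. Because of the division by length, levels of different genes can be set side by side. The depth in reads is unknown. Relative depth, read from the steps that single reads make in the values of low genes, was 0.809 to 1.31 times that of WT Mo-MDSC replicate 1. It would also hold any scaling between libraries. Total FPKM ran from 494252 to 916642 and was highest in PMN-MDSCs, in which the 10 most abundant genes held 18.5% to 28.9% of it. The targeted genes were checked first. Cdkn1a, which encodes p21, was at 8.18, 6.46 and 8.04 FPKM in WT Mo-MDSCs and at 5.55, 8.52 and 6.00 FPKM in the samples labelled p16/p21-DKO, and the groups overlapped. Cdkn2a, which encodes p16, was at 0.718, 0.772 and 0.432 FPKM in WT and at 0.258, 0.586 and 0 FPKM in the samples labelled p16/p21-DKO, again with overlap. A value for a whole gene can count transcript outside the deleted part, which is not given in the sources used here, so these values do not check the genotype and the third group is called DKO-labelled Mo-MDSCs throughout.

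PU.1, the product of Spi1, is an ETS-family factor required for all myeloid lineages. The C/EBP factors are basic leucine zipper proteins that work beside it. C/EBPα starts granulocyte and monocyte commitment, C/EBPβ drives emergency granulopoiesis, C/EBPδ accompanies terminal granulocyte maturation and inflammation, and C/EBPε switches on the genes of the secondary granules. IRF8 and KLF4 direct progenitors towards monocytes, with Klf4 a target of IRF8. Nr4a1, a nuclear receptor induced as an immediate-early gene, is needed for Ly6C-low monocytes. GFI1 is a zinc finger repressor that favours neutrophils and restrains monocyte genes. On the mouse genome (GRCm38, GENCODE M21) the genes lie apart: Spi1 at chr2:91082390-91115756, Cebpa at chr7:35119293-35121928, Cebpb at chr2:167688915-167690418, Cebpd at chr16:15887286-15891031, Cebpe at chr14:54710360-54712174, Irf8 at chr8:120736358-120756694, Klf4 at chr4:55527143-55532466, Gfi1 at chr5:107716657-107726036 and Nr4a1 at chr15:101254269-101274795. Cebpe, Klf4 and Gfi1 are on the minus strand. Cebpb, a gene of 1 exon, lies within Tmem189 on the opposite strand. Whether reads were counted by strand is not stated, so reads of this pair may not have been told apart. Cebpd, also of 1 exon, overlaps the coding gene Spidr on the opposite strand, and Irf8 overlaps the coding gene Gm20388 on its own strand. Neither neighbour was found under that symbol, so shared reads could not be checked for Cebpd and Irf8.

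Promoter windows of 300 bases (250 before the start site and 50 after it, RefSeq, GRCm38.p6) were available for 6 of the 9 genes. Those of Cebpa, Irf8, Klf4 and Nr4a1 are shown, because these are the 4 factors called higher in WT Mo-MDSCs against PMN-MDSCs. Capitals mark, on either strand, the letters searched: the PU.1 core GAGGAA, the C/EBP site TTGCNNAA, the core TGACG of the cyclic AMP response element, the STAT site TTCNNNGAA (GAS), the GC box GGGCGG and the TATA box TATAAA.
Cebpa, chr7:35119043-35119342, plus strand: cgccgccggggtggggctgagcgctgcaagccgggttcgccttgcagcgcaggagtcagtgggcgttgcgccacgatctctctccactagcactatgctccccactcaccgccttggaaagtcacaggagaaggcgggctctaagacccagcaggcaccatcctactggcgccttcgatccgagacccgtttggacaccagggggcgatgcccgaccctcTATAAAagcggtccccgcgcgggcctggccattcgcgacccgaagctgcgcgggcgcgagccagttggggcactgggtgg
Irf8, chr8:120736108-120736407, plus strand: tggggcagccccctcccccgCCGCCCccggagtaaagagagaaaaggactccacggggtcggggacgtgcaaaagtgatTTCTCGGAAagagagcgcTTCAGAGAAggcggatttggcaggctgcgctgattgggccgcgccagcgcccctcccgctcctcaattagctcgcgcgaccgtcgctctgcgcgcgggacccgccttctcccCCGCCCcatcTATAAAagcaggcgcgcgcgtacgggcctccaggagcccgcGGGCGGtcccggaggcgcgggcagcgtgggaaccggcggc
Klf4, chr4:55532426-55532725, minus strand: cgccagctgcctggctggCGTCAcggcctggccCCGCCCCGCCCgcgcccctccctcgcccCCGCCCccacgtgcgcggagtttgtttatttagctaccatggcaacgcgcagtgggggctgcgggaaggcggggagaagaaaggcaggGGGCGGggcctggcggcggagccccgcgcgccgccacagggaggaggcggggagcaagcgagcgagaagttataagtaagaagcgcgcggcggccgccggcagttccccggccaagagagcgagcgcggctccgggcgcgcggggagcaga
Nr4a1, chr15:101266596-101266895, plus strand: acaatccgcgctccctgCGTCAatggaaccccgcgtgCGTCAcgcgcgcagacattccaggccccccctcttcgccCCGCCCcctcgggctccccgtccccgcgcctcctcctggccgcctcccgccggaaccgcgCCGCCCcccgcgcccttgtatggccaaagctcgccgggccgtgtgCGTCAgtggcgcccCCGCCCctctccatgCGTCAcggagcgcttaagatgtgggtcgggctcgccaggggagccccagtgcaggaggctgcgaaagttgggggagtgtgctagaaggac

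The Irf8 window held GAS matches at -171 and -153, counted from the start site as 0, and a TATA box at -31. The Nr4a1 window, which belongs to an internal start site of the gene, held 4 matches to TGACG and 3 GC boxes. The Klf4 window held 1 match to TGACG and 4 GC boxes, of which a pair overlap. In the Cebpa window only a TATA box at -30 matched. Of 32851 mouse promoter windows of this length, 8.30% held the GAS letters, 20.8% TGACG, 35.7% a GC box, 13.6% the TATA letters, 28.3% the PU.1 core and 10.8% the C/EBP site. No PU.1 core or C/EBP letters were found in these 4 windows. A match describes the letters and not a bound site.

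The first comparison asks how the factors differ between the 2 MDSC subsets of WT mice. Klf4, Nr4a1, Cebpa and Irf8 were higher in Mo-MDSCs and Cebpd and Spi1 were higher in PMN-MDSCs, while Cebpb, Cebpe and Gfi1 did not pass the test. Differences are given as log2 fold changes of (FPKM + 0.1), from limma with Benjamini-Hochberg adjustment over all 11491 genes tested, and a gene is called where the adjusted p is below 0.05. This scale understates the change of low genes. All 9 factors passed the filter, which asked that 3 or more of the 6 samples reach 1 FPKM. The 2 subsets differed broadly: 39.1% of all genes tested were called (18.5% higher and 20.6% lower in Mo-MDSCs), against 6 of the 9 factors, 4 higher and 2 lower. An unadjusted p below 0.05 was reached by 7 of the 9 factors and by 48.3% of all genes. The samples of the 2 groups did not overlap in 7 of the 9 factors, 4 higher and 3 lower, and in 52.5% of all genes (26.2% higher and 26.4% lower). The study asked for a fold above 2 in this comparison and below 0.75 between p16/p21-DKO and WT Mo-MDSCs. At an unadjusted p below 0.05, the fold above 2 took in Klf4, Nr4a1 and Cebpa and 3.55% of all genes. Both folds joined into a rule for either direction, which the study did not use, took in 6 factors, with Cebpb in place of Irf8. Of these 3 were higher and 3 lower, against 21.3% of all genes, with 17.7% lower. A fold of 0.75 is a smaller change than a fold of 2, so these shares cannot be compared between directions. With each sample scaled to the same total FPKM the median of all genes moved from 0.01 to 0.45 on the log2 scale and the share of calls that were higher from 47.2% to 85.9%, and the same 6 factors were called in the same directions. Such a scaling shifts all genes of a sample alike. Changes relative to that median therefore had to stay near the main values (-1.22 for Spi1 and 3.24 for Klf4) and are no check. The exact permutation test of 3 against 3 samples cannot go below 0.1 and gave 0.1 for each of the 7 factors without overlap. In bulk RNA, fewer cells of a type and less transcript per cell cannot be told apart.

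**Figure D1:**
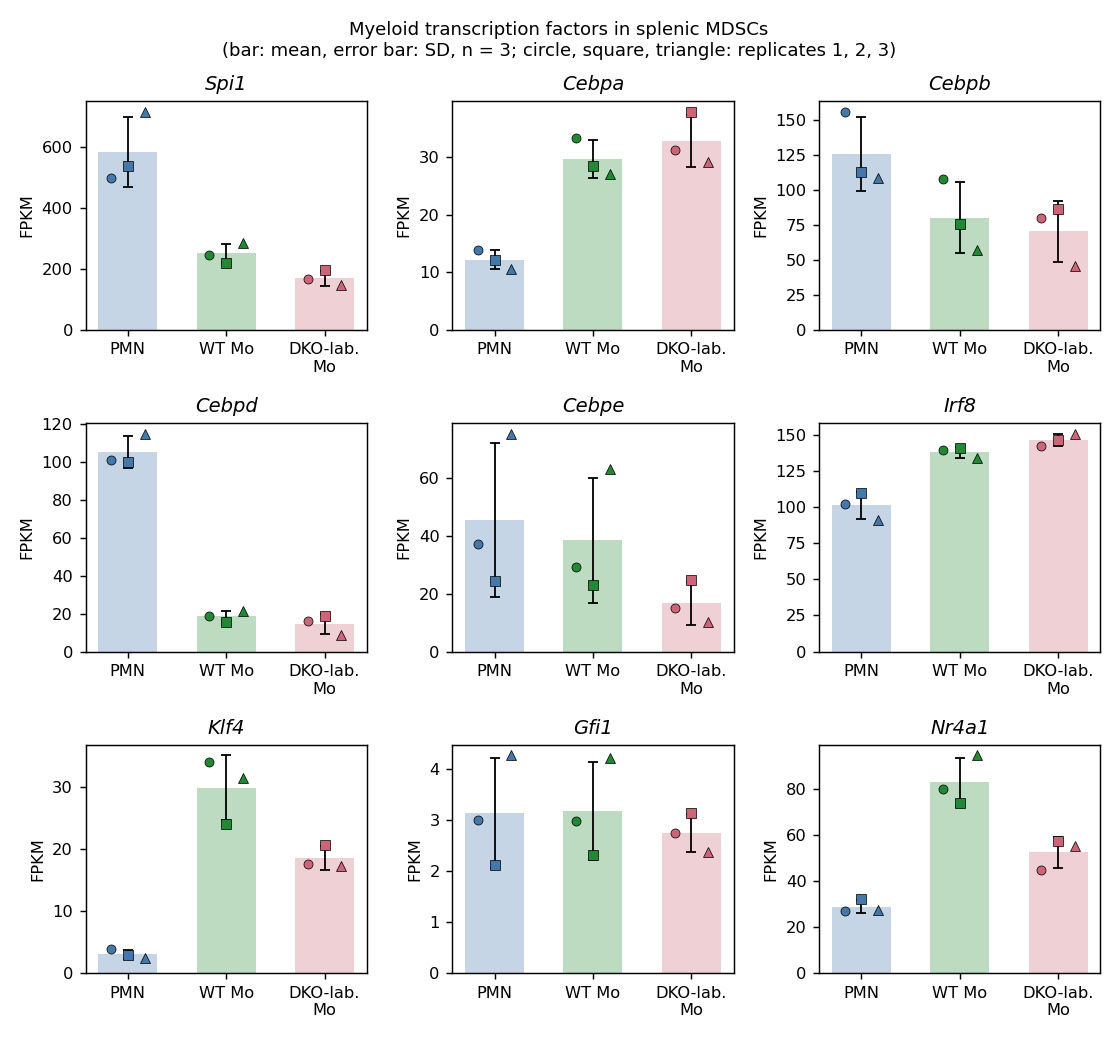
FPKM of the 9 factors in each sample (y axis, from 0) for PMN-MDSCs, WT Mo-MDSCs and DKO-labelled Mo-MDSCs, with bars for group means and error bars for the SD of 3 samples. Klf4 is low in PMN-MDSCs (2.41 to 3.90 FPKM) and far higher in WT Mo-MDSCs (24.1 to 34.1 FPKM), whereas Gfi1 spans the same range in PMN-MDSCs and WT Mo-MDSCs.

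Spi1 had the highest mean of the 9 factors in each group, though in DKO-labelled Mo-MDSCs its range overlapped with that of Irf8. It was at 499, 538 and 717 FPKM in PMN-MDSC replicates 1 to 3 and at 247, 220.3 and 285 FPKM in WT Mo-MDSCs. The lowest PMN-MDSC sample was thus well above the highest WT Mo-MDSC sample. Its log2 fold change was -1.21 (SE 0.16, n = 3 per group, limma adjusted p = 0.00122), a level 2.31-fold higher in PMN-MDSCs. Scaled by quantiles the difference was smaller, -0.73, and was still called.

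The C/EBP genes moved in opposite directions. Cebpd, at 101, 99.99 and 115 FPKM in PMN-MDSCs and 18.9, 15.6 and 21.2 FPKM in WT Mo-MDSCs, was 5.68-fold lower in Mo-MDSCs (log2 fold change -2.51, SE 0.12, limma adjusted p = 1.97e-05). Cebpa, at 13.8, 12.1 and 10.5 FPKM in PMN-MDSCs, was at 33.4, 28.5 and 27.1 FPKM in WT Mo-MDSCs. The higher level of Cebpa in Mo-MDSCs held for every sample and was 2.43-fold (log2 fold change 1.28, SE 0.13, limma adjusted p = 0.000314). Cebpb was at 156, 113 and 109 FPKM in PMN-MDSCs and at 108, 75.9 and 57.4 FPKM in WT Mo-MDSCs. The groups of Cebpb touched but did not overlap, and its difference of -0.68 (SE 0.24) did not pass the test (limma adjusted p = 0.0627). Cebpe was at 37.0, 24.2 and 75.2 FPKM in PMN-MDSCs and at 29.0, 23.0 and 63.1 FPKM in WT Mo-MDSCs, so that replicate 3 was highest and replicate 2 lowest in both groups. The difference of Cebpe was -0.22 (SE 0.49, 95% interval -1.38 to 0.93, limma adjusted p = 0.748), and an interval this wide allows a change of more than 2-fold in the direction of PMN-MDSCs.

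With the replicate number as a block, Cebpb (adjusted p = 0.00106) and Cebpe (log2 fold change -0.22, SE 0.07, adjusted p = 0.0284) were also called, both lower in the WT Mo subset, 8 of 9 factors in all, against 57.3% of all genes with the block. Cebpe was lower in Mo-MDSCs in each of the 3 same-numbered pairs, at 0.785, 0.952 and 0.839 of the PMN-MDSC value. Cebpb was called without the block too when replicate 1 was left out (log2 fold change -0.75, adjusted p = 0.0304) and when WT Mo-MDSC replicate 1 alone was (-0.91, adjusted p = 0.018).

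The make-up of the C/EBP transcripts was read from their shares in the summed level of the 4 genes. This sum was 249 to 310 FPKM (lowest and highest sample) in PMN-MDSCs and 143 to 189 FPKM in WT Mo-MDSCs. Cebpd contributed 32.8% to 40.2% of this sum in PMN-MDSCs and 9.99% to 12.6% in WT Mo-MDSCs. Cebpa contributed 3.41% to 4.86% in PMN-MDSCs and 16.04% to 19.9% in WT Mo-MDSCs. The shares of Cebpb overlapped, at 35.2% to 50.7% and 34.0% to 57.0%, as did those of Cebpe, at 9.71% to 24.3% and 15.4% to 37.4%. The ratio of Spi1 to Cebpa was 36.1, 44.4 and 67.9 in PMN-MDSCs and 7.40, 7.74 and 10.5 in WT Mo-MDSCs. These sums and ratios are descriptions and were not tested.

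**Figure D2:**
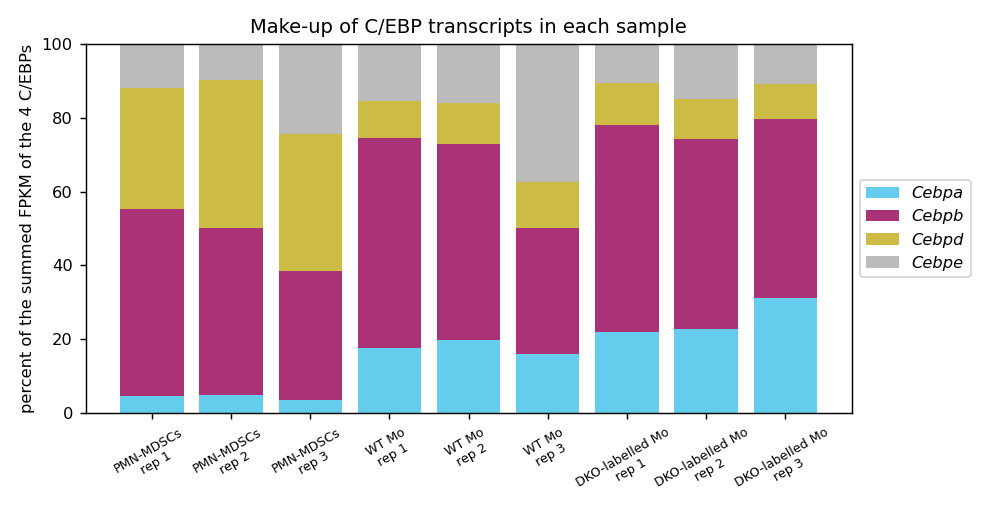
Share of each C/EBP gene in the summed FPKM of Cebpa, Cebpb, Cebpd and Cebpe (y axis, percent) in each of the 9 samples. Cebpd takes 32.8% to 40.2% in PMN-MDSCs and at most 12.6% in any Mo-MDSC sample, and Cebpa takes at most 4.86% in PMN-MDSCs and at least 16.04% in Mo-MDSCs.

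Of the factors of the monocyte branch, Klf4 differed most. It was at 3.90, 2.90 and 2.41 FPKM in PMN-MDSCs and at 34.1, 24.1 and 31.5 FPKM in WT Mo-MDSCs. This was a 9.55-fold higher level (log2 fold change 3.25, SE 0.20, limma adjusted p = 4.18e-05), and it ranked 191 by p-value among all genes tested. Nr4a1 was at 27.0, 32.1 and 27.7 FPKM in PMN-MDSCs and at 79.9, 74.0 and 94.4 FPKM in WT Mo-MDSCs. The difference of Nr4a1, in the same direction in every sample, was 2.85-fold (log2 fold change 1.51, SE 0.12, limma adjusted p = 0.000102). Irf8 was abundant in both subsets, at 102, 110.2 and 91.1 FPKM in PMN-MDSCs and 140, 141 and 134 FPKM in WT Mo-MDSCs. Its higher level in WT Mo-MDSCs was the smallest of the called differences, 1.37-fold (log2 fold change 0.45, SE 0.09, limma adjusted p = 0.00638). The call of Irf8 was lost with replicates 2 and 3 only (log2 fold change 0.45, adjusted p = 0.059), and its fold was under the threshold of 2 that the study used.

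Gfi1 was low in every group. It was at 3.01, 2.13 and 4.26 FPKM in PMN-MDSCs and at 2.99, 2.32 and 4.22 FPKM in WT Mo-MDSCs, so that the same-numbered samples of the 2 groups were within 1.09-fold of each other. Its log2 fold change was 0.03 (SE 0.30, 95% interval -0.67 to 0.74, limma adjusted p = 0.94). The ratio of Irf8 to Gfi1, factors of the monocyte and the neutrophil branch, was 34.1, 51.8 and 21.4 in PMN-MDSCs and 46.8, 60.6 and 31.7 in WT Mo-MDSCs, and the groups overlapped.

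Within PMN-MDSCs the order of mean levels was Spi1, Cebpb, Cebpd, Irf8, Cebpe, Nr4a1, Cebpa, Gfi1 and Klf4, where the ranges of Cebpb and Cebpd, Cebpd and Irf8, Cebpe and Nr4a1, and Gfi1 and Klf4 overlapped. In WT Mo-MDSCs it was Spi1, Irf8, Nr4a1, Cebpb, Cebpe, Klf4, Cebpa, Cebpd and Gfi1, and neighbours from Nr4a1 to Cebpa overlapped. Klf4 thus stood last in PMN-MDSCs, at the percentile 15.0 of the genes with a mean of at least 1 FPKM, and at the percentile 73.5 in WT Mo-MDSCs. Cebpd went from the percentile 91.7 to 60.1. Spi1 and Irf8 were near the top in both, at the percentiles 98.3 and 91.4 in PMN-MDSCs and at 97.2 and 95.1 in WT Mo-MDSCs.

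The second comparison asks whether loss of p16 and p21 changes the factors in Mo-MDSCs. No factor passed the test across all genes. Spi1, Klf4 and Nr4a1 were lower in every DKO-labelled sample than in every WT sample, by 1.49 to 1.597-fold, Cebpe had the largest difference with overlap, and Irf8, Cebpa, Cebpb, Cebpd and Gfi1 had unadjusted p-values over 0.05. Of all 11451 genes tested 0.253% were called (29 genes, with 0.166% higher and 0.0873% lower), against 0 of the 9 factors by limma, and 4 factors had an unadjusted p below 0.05, against 15.0% of all genes. The thresholds of the study took in the same 4 factors, Spi1, Cebpe, Klf4 and Nr4a1, all lower, and 4.75% of all genes (0.323% higher and 4.43% lower). No tool other than limma was run. The WT Mo-MDSC samples are shared with the first comparison, so the values of the comparisons are not independent.

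Nr4a1 was at 44.8, 57.5 and 55.2 FPKM in DKO-labelled Mo-MDSCs, against 79.9, 74.0 and 94.4 FPKM in WT. The highest DKO-labelled sample was below the lowest WT sample. The log2 fold change was -0.66 (SE 0.13, 95% interval -0.96 to -0.35, unadjusted p = 0.00111, limma adjusted p = 0.125). Klf4 was at 17.7, 20.7 and 17.2 FPKM, against 34.1, 24.1 and 31.5 FPKM in WT, again without overlap (log2 fold change -0.68, SE 0.14, unadjusted p = 0.0017, limma adjusted p = 0.141). Klf4 was still at 562% to 676% of the PMN-MDSC mean in these samples, and Nr4a1 at 155% to 199%. Spi1 was at 165, 195 and 146 FPKM, against 247, 220.3 and 285 FPKM in WT (log2 fold change -0.57, SE 0.14, unadjusted p = 0.00357, limma adjusted p = 0.169). The samples of the 2 groups did not overlap with the DKO-labelled group lower in these 3 factors and in 12.9% of all genes.

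Cebpe was at 15.1, 24.7 and 10.2 FPKM in DKO-labelled Mo-MDSCs and at 29.0, 23.0 and 63.1 FPKM in WT. The ranges overlapped through DKO-labelled replicate 2 and WT replicate 2. The log2 fold change was -1.15 with an SE of 0.42, the largest SE of the 9 factors in this comparison (unadjusted p = 0.0265, limma adjusted p = 0.277), and it was -0.72 without WT Mo-MDSC replicate 3. Irf8 was at 142, 147 and 151 FPKM, each above every WT sample, but by 1.06-fold only (log2 fold change 0.09, SE 0.08, 95% interval -0.09 to 0.26, limma adjusted p = 0.612). Such a non-overlap in the higher direction was seen in 7.96% of all genes. Cebpa, at 31.3, 37.9 and 29.2 FPKM, overlapped with WT (log2 fold change 0.14, 95% interval -0.15 to 0.43, limma adjusted p = 0.617).

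Cebpb was at 80.0, 86.1 and 45.5 FPKM in DKO-labelled samples and Cebpd at 16.3, 18.5 and 8.72 FPKM, and in both genes replicate 3 was the lowest. Their intervals were wide, from -0.87 to 0.48 for Cebpb and from -1.03 to 0.21 for Cebpd on the log2 scale. Gfi1 was at 2.75, 3.13 and 2.38 FPKM (log2 fold change -0.17, 95% interval -0.70 to 0.36). The ratio of Spi1 to Cebpa was 5.27, 5.16 and 4.99 in DKO-labelled samples, below each WT value (7.40 to 10.5). The ratio of Irf8 to Gfi1 overlapped between the groups, at 51.8, 46.9 and 63.4 against 46.8, 60.6 and 31.7.

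**Figure D3:**
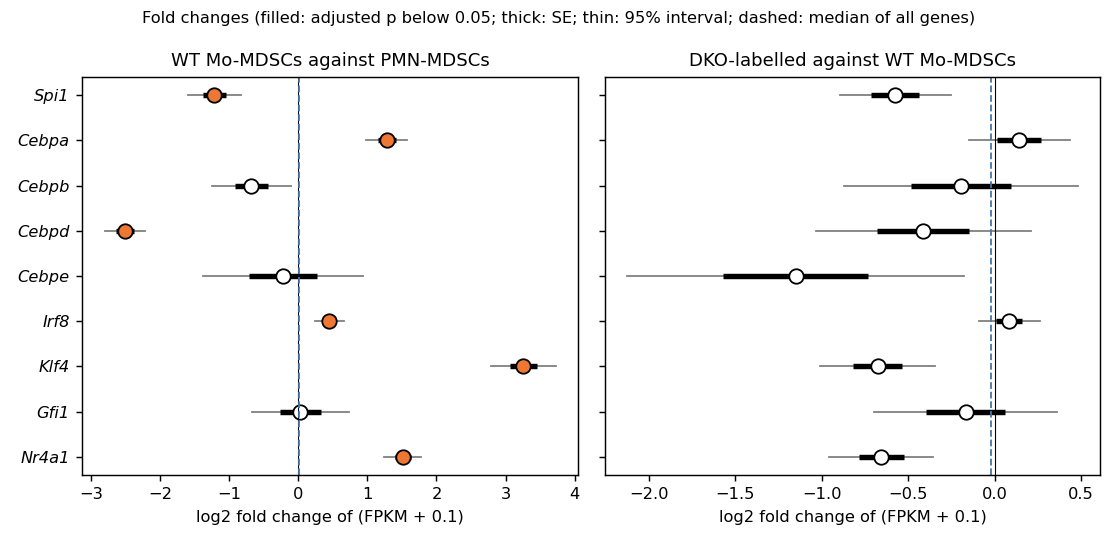
Log2 fold change of (FPKM + 0.1) of each factor (x axis) in WT Mo-MDSCs against PMN-MDSCs (left) and DKO-labelled against WT Mo-MDSCs (right), with thick bars for the SE, thin bars for the 95% interval and filled points for an adjusted p below 0.05. On the left 6 points are filled, from -2.51 for Cebpd to 3.25 for Klf4, and on the right none is, with the intervals of Spi1, Cebpe, Klf4 and Nr4a1 below 0.

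Levels of other cell types' markers moved with several of these differences, and their part in them was not tested. The summed FPKM of 9 neutrophil markers was 98962 to 227341 in PMN-MDSCs. It was 16450 to 57108 in WT and 6453 to 15861 in DKO-labelled Mo-MDSCs. Most of it was S100a8 and S100a9, which the study names as MDSC marker genes. Their means were 65944 and 69762 FPKM in PMN-MDSCs, 13934 and 14405 FPKM in WT and 4560 and 4874 FPKM in DKO-labelled Mo-MDSCs. Between DKO-labelled and WT Mo-MDSCs 8 of the 9 markers had a log2 fold change below 0 and 1, Mmp8, above it. In the WT Mo subset against PMN-MDSCs 6 of the 9 were called lower, against 20.6% of all genes. With the replicate number as a block all 9 were called lower, where 57.3% of all genes were called in either direction. None of the 9 was at 0 in any group, and the defining marker Ly6g was not found under that symbol. The sum was highest in replicate 3 and lowest in replicate 2 in PMN-MDSCs and in WT Mo-MDSCs, the order that Cebpd, Cebpe and Gfi1 had in both groups and Spi1 and Nr4a1 in WT Mo-MDSCs. In DKO-labelled samples the sum was highest in replicate 2 and lowest in replicate 3, the order of 7 of the 9 factors there, all but Irf8 and Nr4a1. The share of all genes in these orders was not counted, so no link between the factors and the sum can be read from them. Of 10 monocyte markers 8 were called higher in WT Mo-MDSCs against PMN-MDSCs (18.5% of all genes). Their sum was 1811 to 1823 FPKM in PMN-MDSCs, against 3199 to 3646 FPKM in WT and 2681 to 2935 FPKM in DKO-labelled Mo-MDSCs.

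Markers of other spleen cells were present in all groups. B cell markers (8 genes, all above 1 FPKM in each group) summed to 1699 to 1962 FPKM in PMN-MDSCs, against 1215 to 1370 FPKM in WT and 1298 to 1666 FPKM in DKO-labelled Mo-MDSCs, from Cd79a (577, 367 and 418 FPKM on average) to Ebf1. Red pulp macrophage markers (9 genes) summed to 8503 to 9425, 5314 to 6365 and 6700 to 9682 FPKM, and Hmox1 among them was called higher in DKO-labelled than in WT Mo-MDSCs (log2 fold change 1.06, limma adjusted p = 0.0299), a call that was lost in 5 of the 6 fits that left out 1 sample (adjusted p = 0.0405 to 0.202), all but that without DKO-labelled replicate 3. It held in 7 of 11 other alternatives, not including the replicate block. Erythroid markers (8 of 9 found) ran from 3075 to 6982 FPKM over all samples and overlapped between groups. Sums were low for T cell (14.0 to 30.6 FPKM), NK cell (1.69 to 3.88), dendritic cell (7.70 to 16.3) and platelet markers (4.07 to 10.2), and 103 to 189 FPKM for eosinophil and basophil markers, mostly Ccr3. Markers of progenitors, in which Cebpa, Gfi1 and Irf8 are also active, summed to 7.55 to 24.4 FPKM in PMN-MDSCs, against 26.9 to 58.7 FPKM in WT and 13.3 to 22.0 FPKM in DKO-labelled Mo-MDSCs. Prtn3 and Elane, granule proteases of promyelocytes, were called higher in WT Mo-MDSCs against PMN-MDSCs, by 2.55 and 2.30 on the log2 scale. Kit, the stem cell factor receptor, was called lower (-1.01). These were 3 of the 5 tested, against 39.1% of all genes. With replicates 2 and 3 only none of the 5 was called.

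**Figure D4:**
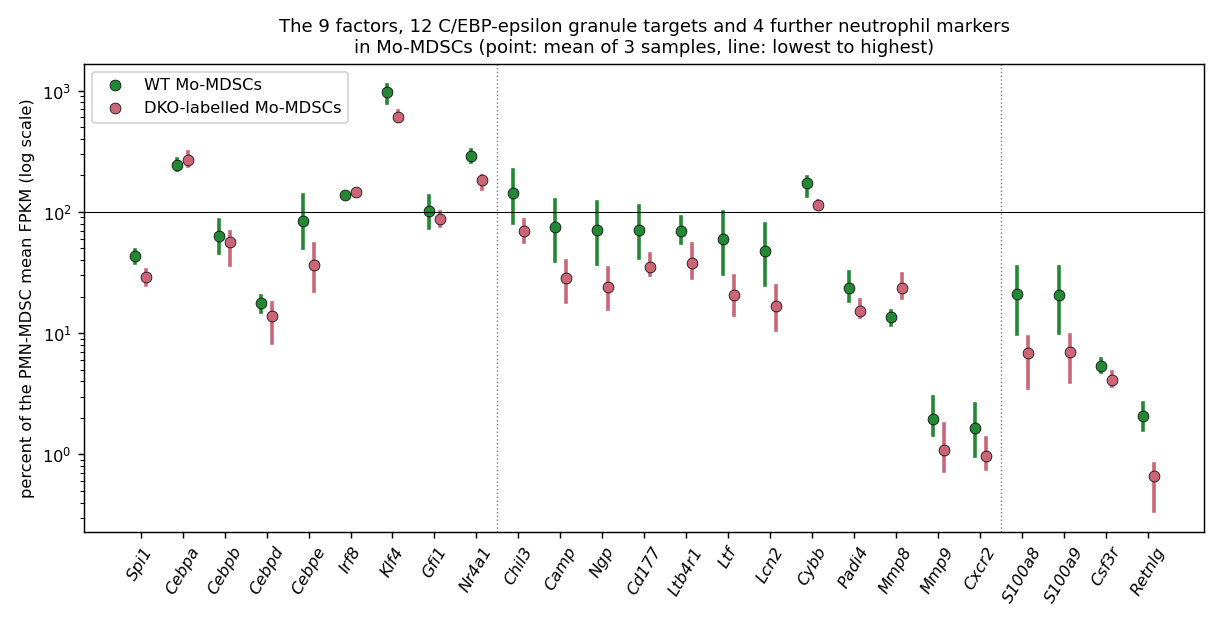
Mean FPKM in WT and DKO-labelled Mo-MDSCs of the 9 factors, of 12 target genes of C/EBPε and of 4 further neutrophil markers. Values are a percentage of the PMN-MDSC mean (y axis, log scale), with lines from the lowest to the highest of 3 samples. Cebpe is at 84.4% in WT Mo-MDSCs, near Camp (74.5%) and Ngp (70.5%), while Cxcr2 (1.66%) and Mmp9 (1.96%) are far lower. Of the other targets Mmp8 (13.5%) and Padi4 (23.7%) are also low, and Chil3 (143%) and Cybb (173%) are above the PMN-MDSC mean.

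Cebpe and the genes it is known to activate could be set side by side. The mean of Cebpe in WT Mo-MDSCs was 84.4% of the PMN-MDSC mean and in DKO-labelled Mo-MDSCs 36.7%. Camp and Ngp, proteins of the secondary granules, were at 74.5% and 70.5% in WT and at 28.8% and 23.9% in DKO-labelled Mo-MDSCs, and Ltf, lactoferrin, at 59.3% and 20.7%. These means rest on replicate 3. In a check chosen after seeing the data, the WT values of Camp, Ngp and Ltf were 48.7%, 45.2% and 38.8% without WT Mo-MDSC replicate 3, and 116%, 115% and 93.2% without PMN-MDSC replicate 3, against 57.2% and 126% for Cebpe. Without PMN-MDSC replicate 3 the DKO-labelled values were 44.9%, 39.1% and 32.6%, and that of Cebpe was 54.6%. Genes of later neutrophils were far lower in Mo-MDSCs: Mmp9, gelatinase, was at 1.96% and 1.09%, and the chemokine receptor Cxcr2 at 1.66% and 0.966%. The 12 C/EBPε targets listed are not all granule genes, as the receptor Cxcr2 is among them. Of the 12, 1 was called higher in WT Mo-MDSCs (Cybb) and 4 lower (Cxcr2, Mmp9, Mmp8 and Padi4), against 18.5% and 20.6% of all genes. The median log2 fold change of the 12 was -0.58, against 0.01 over all genes. With the replicate number as a block all 12 were called, 2 higher and 10 lower, against 57.3% of all genes. In DKO-labelled against WT Mo-MDSCs none of the 12 was called by limma. An unadjusted p below 0.05 was reached by 10, against 15.0% of all genes. The median was -0.91 against -0.02 over all genes. The 5 most abundant were Ngp (-1.45), Camp (-1.27), Lcn2 (-1.42), Ltf (-1.41) and Chil3 (-0.93). Of these Ngp, Lcn2 and Ltf had no overlap between groups, as had 12.9% of all genes in the lower direction. Mmp8, collagenase of the same granules, had the opposite sign (0.79, limma adjusted p = 0.156), also without overlap. It was at 42.3, 50.2 and 55.2 FPKM in WT and at 76.0, 112 and 71.7 FPKM in DKO-labelled Mo-MDSCs. In the higher direction 7.96% of all genes had no overlap. Over the 9 samples the genes whose log2 values were most like those of Cebpe were Orm1, Camp and Sept5 (Pearson r 0.994, 0.992 and 0.992 among 11288 genes).

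Known targets of the other factors were described by the same counts. Over all genes tested 39.1% were called between the subsets, 18.5% higher and 20.6% lower in WT Mo-MDSCs. Between DKO-labelled and WT Mo-MDSCs 0.253% were called and 15.0% had an unadjusted p below 0.05. Of 14 PU.1 targets 2 were called higher and 9 lower in WT Mo-MDSCs against PMN-MDSCs (median -0.70), led by Il1b (-5.72) and Csf3r, the G-CSF receptor (-4.24), while Csf1r, the M-CSF receptor, differed by 0.09 and was not called. The count of 11 fell to 7 without PMN-MDSC replicate 3, to 7 without WT Mo-MDSC replicate 1 and to 6 with replicates 2 and 3 only. None was called in DKO-labelled against WT Mo-MDSCs (6 at an unadjusted p below 0.05, median -0.28). Of 12 IRF8 targets tested, Klf4 included, 7 were called higher and 2 lower in WT Mo-MDSCs (median 0.52), with Cx3cr1 (4.01), Naaa (1.501), Nlrc5 (0.80) and Ctss, cathepsin S (0.75), among the higher. None was called in the second comparison (6 at an unadjusted p below 0.05). Its most abundant member, Cd74, the invariant chain, was 0.52 higher in DKO-labelled samples (limma adjusted p = 0.176).

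Of 6 monocyte genes known as KLF4 targets, Ccr2 (7.01), Cx3cr1 (4.01) and Ly6c2 (1.58) were called higher in WT Mo-MDSCs, and Cd14 (-1.16) and Itgam (-0.67) were called lower. Ccr2, the chemokine receptor by which monocytes leave the marrow, was at 362, 281 and 336 FPKM in WT and at 178, 202 and 159.9 FPKM in DKO-labelled Mo-MDSCs (log2 fold change -0.86, limma adjusted p = 0.0626). None of the 6 passed in the second comparison, and 4 had an unadjusted p below 0.05, against 15.0% of all genes. Of 15 genes of Ly6C-low monocytes, the cells that need Nr4a1, 5 were called higher and 3 lower in WT Mo-MDSCs, against 18.5% and 20.6% of all genes. With the replicate number as a block 13 were called, 6 higher and 7 lower, against 57.3% of all genes. Ace (5.24), Cx3cr1, Apoc2 (2.23) and Spn (1.21) were among the higher and the integrin Itgax (-0.997) was lower. None was called in the second comparison, and 8 had an unadjusted p below 0.05, against 15.0% of all genes. Without overlap 6 were lower and 3 higher, against 12.9% and 7.96% of all genes. Of 11 genes tested that GFI1 is known to repress, Cebpa included, 3 were called higher and 4 lower in WT Mo-MDSCs. Of all genes 18.5% and 20.6% were. The largest difference was in Csf1, the ligand of the M-CSF receptor (-3.67), and Cdkn1a was among the higher (1.64). None was called in the second comparison.

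Relatives of the factors were compared to see whether whole families moved. Of 74 other transcription factors and cofactors tested, 14 were called higher and 21 lower in WT Mo-MDSCs (median -0.07), against 18.5% and 20.6% of all genes. None was called in DKO-labelled against WT Mo-MDSCs (median -0.06). There 7 were higher without overlap and 13 lower, against 7.96% and 12.9% of all genes. Among the KLFs other than Klf4, Klf6 (-1.35), Klf2 (-1.11), Klf3 (-0.65) and Klf7 (-0.60) were lower in WT Mo-MDSCs and Klf13 (0.46) was higher, 5 of 9 called. Among the IRFs other than Irf8, Irf5 (0.84) was higher and Irf1 (-0.82), Irf2 (-0.53) and Irf9 (-0.39) were lower, 4 of 7. Among the ETS factors Ets2 (-1.96), Ets1 (-0.59), Fli1 (-0.48) and Spib (-0.47) were lower and Etv6 (0.56) was higher, 5 of 10. Of the C/EBP relatives Ddit3, which forms inhibitory dimers with C/EBPs, was lower (-1.63), and Cebpg and Cebpz were not called. With the replicate number as a block 1 of these 3 was called higher and 1 lower. Of the cofactors around GFI1, 1 of 6 was called (Zbtb17, 0.46), and 2 were called higher with the block. Nr4a2 and Nr4a3 were under 1 FPKM in all samples and were not tested. Of 39 further haematopoietic factors tested 10 were called higher and 9 lower, with Id1 (-1.30), Jdp2 (-1.28), Bcl6 (-1.24), Rara (-1.11) and Batf3 (1.06) the largest. In the second comparison none of these families held a call. Among the called IRFs, Irf9 was at 0.06 when samples were scaled to the same total FPKM, which is still below the median of all genes under that scaling (0.45).

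**Figure D5:**
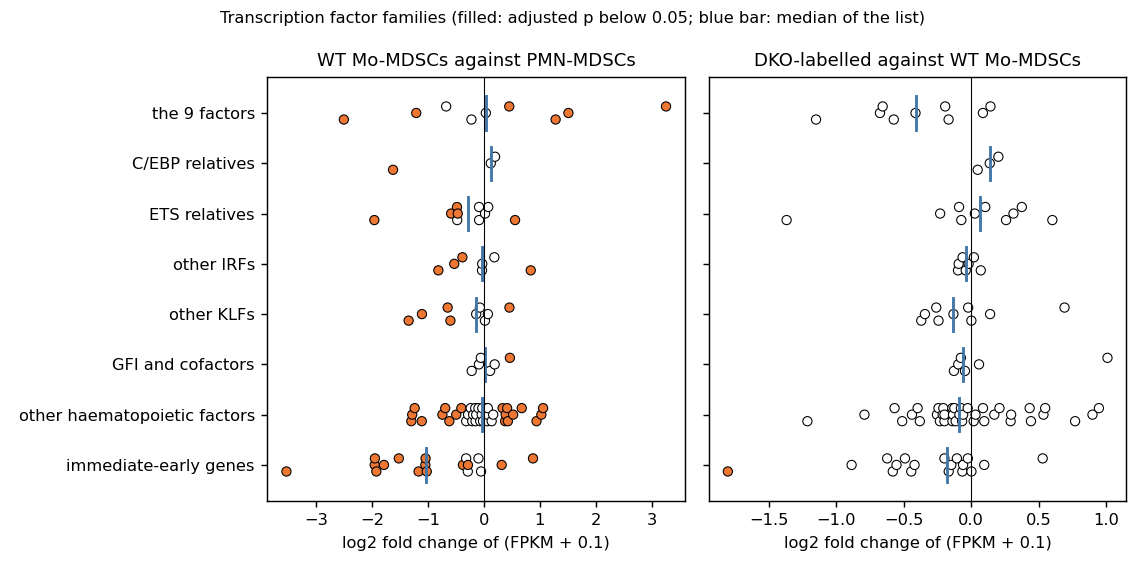
Log2 fold change of (FPKM + 0.1) (x axis) of each gene of 8 lists in WT Mo-MDSCs against PMN-MDSCs (left) and DKO-labelled against WT Mo-MDSCs (right), with filled points for an adjusted p below 0.05 and blue bars for list medians. On the left most lists hold filled points on both sides of 0, and on the right the only filled point is Fosb, at -1.80, whose call was lost in 5 of the 6 fits that left out 1 sample.

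Nr4a1 was also set beside 18 immediate-early genes, which cells switch on within minutes of stimulation or of handling. Of these 2 were called higher and 12 lower in WT Mo-MDSCs against PMN-MDSCs (median -1.03), led by Dusp1 (-3.53), Ier3 (-1.95), Junb (-1.95), Fosl2 (-1.92) and Jund (-1.79), so that Nr4a1 (1.51) had the opposite sign to most of this list. In DKO-labelled against WT Mo-MDSCs 1 of the 18 was called lower, Fosb (-1.80, limma adjusted p = 0.0261), and 9 were lower without overlap. Over all genes these shares were 0.0873% and 12.9%. Fosb was at 6.56, 7.06 and 5.04 FPKM in WT and 2.25, 1.38 and 1.56 FPKM in DKO-labelled samples. The call of Fosb was lost in 5 of the 6 fits that left out 1 sample (limma adjusted p = 0.025 to 0.156), all but that without DKO-labelled replicate 1. It held in 8 of 11 other alternatives, not including replicates 2 and 3 only. The summed level of the list was 936 to 1104 FPKM in WT and 736 to 814 FPKM in DKO-labelled Mo-MDSCs. Its part in the lower level of Nr4a1 and Klf4 in DKO-labelled samples was not tested.

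For each factor the genes with the most similar pattern over the 9 samples were read from Pearson r of log2(FPKM + 0.1), as a description, since the 9 samples fall into 3 groups. Each sample is a library of its own, and all are from spleen. They were Gmfg, Myd88 and Anxa2 for Spi1 (r of 0.997 each, 674 genes over 0.95), Tial1, Upf3b and Zcchc24 for Cebpa (0.993 to 0.990), Sap30l for Cebpd (0.996), Lrrc8c for Irf8 (0.991) and Fam55d, Ms4a6b and Ehd4 for Klf4 (0.999, 0.998 and 0.996). The patterns of Cebpb, Gfi1 and Nr4a1 had fewer close matches, with 4, 2 and 89 genes over 0.95, headed by Eid1 (0.990), Tesk2 (0.975) and Prkch (0.986).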

How the data were processed

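Groups and replicate numbers follow the labels. Libraries of mRNA were stranded and sequenced single-end, and the authors mapped the reads to mm10 and deposited 1 table of FPKM values per sample (TopHat2 2.0.13, Bowtie2 2.2.3, SAMtools 0.1.19 and Cuffnorm 2.2.1 per the submitters' processing notes). The annotation and library scaling are not given in the sources used here. FPKM values are not counts and the files hold no depth in reads, so precision is given by the standard errors (0.0751 to 0.491 on the log2 scale for the 9 factors).

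Values as deposited were transformed to log2(FPKM + 0.1). A gene was tested where 3 or more of the 6 samples compared reached 1 FPKM. Each comparison was fitted on its own 6 samples with limma 3.58.1 (R 4.3.3, lmFit, eBayes with a trend), without covariates. P-values were 2-sided, were given a Benjamini-Hochberg adjustment over all genes tested and were called below 0.05. The script was tested on simulated data. No pair of files was identical. Older symbols were matched through RefSeq synonyms. Python 3.11.15 was used for tables.

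Same-numbered samples of WT Mo-MDSCs and PMN-MDSCs deviated together (correlations across genes of 0.2 to 0.483 for the 3 pairs, mean -0.163 for different numbers). The main fit leaves the numbers out, so its standard errors, intervals and p-values do not use this pairing. A blocked fit is given beside it for factors and lists whose calls it changes between these groups. The labels do not say what a number stands for. By the library numbers in the labels, replicate 1 was numbered well before replicates 2 and 3. It holds 1 sample of each group, too few for a test within it.

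The members and all gene lists were chosen with earlier results of these data known. All 9 factors are named. From each other list at most 5 genes are named, the called ones with the largest change or, with none called, the most abundant, and from marker lists the most and least abundant. Cd14, Cx3cr1, Itgam and other genes named beyond this rule were chosen after their values were seen. Alternatives were other pseudocounts, filters, scalings and samples in the fit, no variance moderation, the block, replicates 2 and 3 only and leaving out each sample. The thresholds of the study were also applied, joined into a rule for both directions that the study itself did not use.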

Additional observations from a re-analysis of the deposited data

How the results depend on the processing

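The 6 factors called between WT Mo-MDSCs and PMN-MDSCs (Spi1, Cebpa, Cebpd, Irf8, Klf4 and Nr4a1) kept their direction under all 17 alternative fits, and 5 of them were called in each, while Irf8 was not called with replicates 2 and 3 only. The number of factors called was 6 to 7 when single samples were left out and 8 with the replicate block. Between DKO-labelled and WT Mo-MDSCs 0 factors were called under any of the 17, with or without the replicate block, and 4 by the thresholds of the study. In that comparison same-numbered samples also had consecutive library numbers. Their correlations across genes ran from -0.07 to 0.348, with a mean of 0.168, against a mean of -0.0835 for different numbers. The block moved the calls over all genes from 29 to 20.

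Directions turned for Cebpe, Gfi1 and Cebpb, in comparisons in which they were not called without the block. Between the subsets the log2 fold change of Cebpe was 0.218 with samples scaled to the same total. Relative to the median of all genes it stayed at -0.23, as such a scaling must leave it. Without single samples the change of Cebpe ran from -0.653 (without WT Mo-MDSC replicate 3) to 0.219 (without PMN-MDSC replicate 3). That of Gfi1 was -0.0793 with quantile normalization and 0.462 with samples scaled to the same total. It ran from -0.209 (without PMN-MDSC replicate 2) to 0.276 (without PMN-MDSC replicate 3). Between DKO-labelled and WT Mo-MDSCs Cebpb ran from -0.411 (without WT Mo-MDSC replicate 3) to 0.0953 (without DKO-labelled replicate 3), and Gfi1 from -0.365 (without WT Mo-MDSC replicate 2) to 0.0523 (without WT Mo-MDSC replicate 3). With the block Cebpe was called lower in WT Mo-MDSCs. The cause of the turns without single samples was not tested.

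Over all genes, 4492 were called between the subsets, 6584 with the block, 6780 when scaled to the same total and 2952 with replicates 2 and 3 only. Between DKO-labelled and WT Mo-MDSCs the count of 29 was 51 with all 9 samples in 1 fit, 13 without the filter on low values, 7 with replicates 2 and 3 only, 0 without variance moderation, and 8 to 23 without single samples. Fosb and Hmox1 each lost their calls in 5 of the 6 fits that left out a sample. The block also raised the B cell markers called between the subsets from 4 to 7. Progenitor markers went from 3 to 5, and eosinophil and basophil markers from 1 to 3. Of all genes 57.3% were called with it. Neutrophil markers went to 9 of 9 lower and T cell markers to 3 of 6 lower. Of 9 red pulp macrophage markers 8 were lower, and of 7 erythroid markers 1 was higher. Higher and lower calls were 2 and 10 of 14 PU.1 targets and 8 and 3 of 12 IRF8 targets. They were 3 and 5 of 11 GFI1 targets, 1 and 5 of 10 ETS factors and 2 and 3 of 7 other IRFs. They were 10 and 14 of 39 further haematopoietic factors and 2 and 13 of 18 immediate-early genes. With 3 samples a group and no read depth, the 95% intervals without the block held 0 for Cebpe and Gfi1 between the subsets and for Cebpa, Cebpb, Cebpd, Irf8 and Gfi1 between DKO-labelled and WT Mo-MDSCs.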
